A study of Mus musculus with 6 samples.

Results

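The genes followed here belong to the liver X receptor (LXR) pathway and to cholesterol efflux, measured in splenic CD4+ T cell RNA of lean and obese mice. They are Abca1, Abcg1, Apoe, Nr1h2, Nr1h3, Mylip, Lpcat3, Scarb1, Pltp and Npc1. These 10 genes were chosen by symbol, with earlier results of these data known, and all were found among the 22899 genes of each library. The mice were C57BL/6 and began their diets at 6 to 8 weeks of age, for at most 4 months. Lean mice received a normal diet, and obese mice a high-fat diet with 60 kcal% fat. Helper T cells, which carry CD4, were sorted from spleen by flow cytometry, and each group had 3 libraries, here called lean 1 to 3 and obese 1 to 3. The labels name no transgene, other agent or pooling, nor do they state if libraries stand for separate mice, and p-values therefore reflect only how far libraries of a group lie apart, which may be technical.

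LXR is a nuclear receptor that is switched on by oxidised forms of cholesterol. It exists as LXRα, encoded by Nr1h3, and LXRβ, encoded by Nr1h2, and each binds DNA together with a retinoid X receptor. Its targets move cholesterol out of the cell onto lipoproteins, remodel membrane phospholipids and limit the uptake of lipoproteins. LXRβ is the form known for its role in lymphocytes, where it restrains proliferation, while LXRα is known from macrophages, liver and fat. In the spleen LXRα is needed for the macrophages of the marginal zone.

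The values were FPKM, a fragment count corrected for gene length and library size, so levels of different genes can be set side by side. T cell genes were high in all 6 libraries, with Cd4 between 279.3 and 362.6 FPKM and Cd3e between 346.2 and 454.9 FPKM. RNA of other cells was present as well, and it moved with the groups. The summed FPKM of 17 macrophage markers was 702.2 to 785.9 in lean libraries but 1620 to 1796 in obese ones. By the test described below, all 16 markers that could be tested rose, beside 5.77% of all tested genes. Among the defining ones, C1qb of complement went from 59.1 ± 1.16 to 163 ± 22.9 FPKM, Adgre1 (F4/80) from 9.62 ± 1.33 to 28.1 ± 4.76 FPKM, and Spic, the transcription factor of red pulp macrophages, from 6.51 ± 1.74 to 25.8 ± 3.89 FPKM (n = 3 per group, SD). None of the 17 was at 0 in any library. A large part of their sum was Lyz2 alone, at 322.8 to 434.5 FPKM in lean libraries and 649.9 to 901.6 FPKM in obese ones. Red cell genes rose too (9 of 9 tested), with a summed level of 173.9 to 474.3 FPKM in lean libraries and 29020, 4354 and 23492 FPKM in obese 1, 2 and 3. Neutrophil markers lay lower (6 of 7 fell, beside 0.519% of all tested genes) and the 7 B cell markers overlapped between groups. In such bulk RNA, more cells of a type and more RNA per cell cannot be told apart.

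Setting the obese group against the lean group addresses how the high-fat diet state differs in transcripts of the sorted cells. Of the 10 genes, 4 rose in the obese libraries and none fell: Apoe, Nr1h3, Pltp and Scarb1. The test was limma on log2(FPKM + 1) with Benjamini-Hochberg (BH) adjustment over all 10788 genes that passed the filter on low values, and an adjusted p under 0.05 counted as a change. All 10 genes passed that filter. By the same rule 6.28% of all tested genes changed, with 5.77% rising and 0.519% falling. The median difference of the 10 genes (obese minus lean, in log2(FPKM + 1) units) was 0.40, against 0.10 for all tested genes. The difference was positive for 8 of the 10, as for 70.8% of all tested genes. Groups did not overlap for 8 of the 10, 7 of them higher in obese libraries, beside 31.5% of all tested genes (25.4% higher in obese libraries). Leaving out any 1 library changed none of the 4 calls (limma, BH-adjusted p up to 0.0292). Obese 2, the obese library with the least red cell RNA, was also set alone against the 3 lean libraries. The spread then comes from the lean libraries only and obese 2 is assumed to vary like them, so this fit is no replicate check of the calls. Its limma BH-adjusted p was 0.0153 for Apoe, 0.0249 for Nr1h3, 0.0546 for Scarb1 and 0.104 for Pltp.

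**Figure D1:**
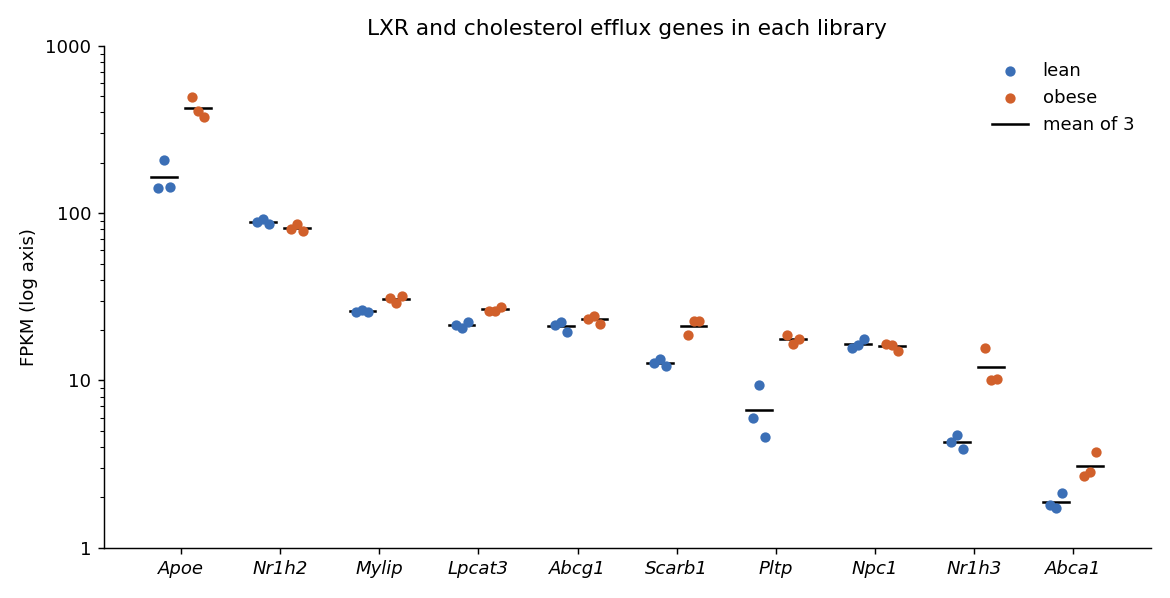
FPKM of the 10 genes in each library on a log axis, with lean libraries in blue, obese libraries in orange and a black line at the mean of 3. Apoe, Pltp and Nr1h3 stand 2.59, 2.67 and 2.78 times as high in obese as in lean libraries, while Nr1h2, Abcg1 and Npc1 lie almost level.

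Of the 2 LXR genes, Nr1h3 rose and Nr1h2 did not pass. Nr1h3, which encodes LXRα (gene 22259, chromosome 2, 91184061 to 91202829, GRCm38.p6), stood at 4.31, 4.71 and 3.87 FPKM in lean 1 to 3 and at 15.7, 10.1 and 10.2 FPKM in obese 1 to 3. Every obese library was above every lean one, and obese 1 was the highest. The means were 4.30 ± 0.420 and 12 ± 3.2 FPKM (n = 3 per group, SD), a log2 difference of 1.27 ± 0.17 (limma, SE; BH-adjusted p = 0.00311). It overlaps by 18 bases with Acp2, a lysosomal phosphatase, which also rose, from 5.62 ± 0.384 to 12.1 ± 1.44 FPKM (n = 3 per group, SD; limma, BH-adjusted p = 0.00163).

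Nr1h2, which encodes LXRβ (gene 22260, chromosome 7, 44549616 to 44553968), was the more abundant of the pair in every library. It was listed at 88.2, 92.0 and 86.7 FPKM in lean libraries and at 80.1, 86.5 and 78.2 FPKM in obese ones. The obese values lay just under the lean ones without overlap, and the difference of −0.12 ± 0.07 on the log2 scale did not pass (limma, SE; BH-adjusted p = 0.294). Its size depended on the scaling, at −0.27 after median-of-ratios scaling, −0.06 after TPM scaling and −0.02 after scaling without globin genes. The FPKM ratio of Nr1h2 to Nr1h3 was 20.5, 19.5 and 22.4 in lean libraries and 5.11, 8.59 and 7.70 in obese ones. Groups were therefore separate for this ratio, with a log2 difference of −1.58 (exact permutation test over 6 libraries, 2-sided, p = 0.1, the smallest it can give). The sum of both genes was 93.3 ± 3.14 FPKM in lean libraries and 93.6 ± 4.55 FPKM in obese ones (n = 3 per group, SD), a difference within the spread of either group. Of the retinoid X receptors, the dimer partners of LXR, Rxra rose from 8.04 ± 0.419 to 12.3 ± 0.764 FPKM (n = 3 per group, SD; log2 difference 0.55; limma, BH-adjusted p = 0.0115). Without obese 1 it had a BH-adjusted p of 0.051. Rxrb, the main form here, had 39.1 ± 1.25 and 38.1 ± 1.47 FPKM (n = 3 per group, SD), and Rxrg was at most 0.22 FPKM.

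Apoe encodes apolipoprotein E, the lipoprotein component that takes up cholesterol leaving macrophages (gene 11816, chromosome 7, 19696244 to 19701310). It was the most abundant of the 10 genes in every library, at 142.3, 209.2 and 143.7 FPKM in lean libraries and 498.1, 407.8 and 378.2 FPKM in obese ones. The groups were far apart, and lean 2 was the highest of its group. The means were 165 ± 38.2 and 428 ± 62.5 FPKM (n = 3 per group, SD), a log2 difference of 1.38 ± 0.16 (limma, SE; BH-adjusted p = 0.00184). A share of 0.862% of tested genes had a larger difference.

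Of its neighbours on chromosome 7, Apoc1 rose and Tomm40 did not pass. Apoc1, an apolipoprotein gene 3585 bases away, was listed at 1.13, 1.77 and 1.01 FPKM in lean libraries and 7.67, 4.90 and 4.42 FPKM in obese ones. It rose by 1.52 ± 0.20 on the log2 scale (limma, SE; BH-adjusted p = 0.00311). Apoc2, the activator of lipoprotein lipase, lay 18303 bases away and had 4.2 ± 0.881 and 10.6 ± 4.62 FPKM (n = 3 per group, SD). The log2 difference of 1.09 missed the threshold (limma, BH-adjusted p = 0.0524), with obese 3 at 6.02 FPKM and lean 2 at 5.11 FPKM the nearest values of the groups. Apoc4 stayed under the filter, at 0.21 to 0.42 FPKM in lean libraries and 0.40 to 1.17 FPKM in obese ones. On the other side Tomm40, a subunit of the mitochondrial import pore whose gene span lies 3 bases from that of Apoe, had 30.8 ± 2.08 and 32.7 ± 0.379 FPKM (n = 3 per group, SD) and a difference of 0.09 (limma, BH-adjusted p = 0.510).

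**Figure D2:**
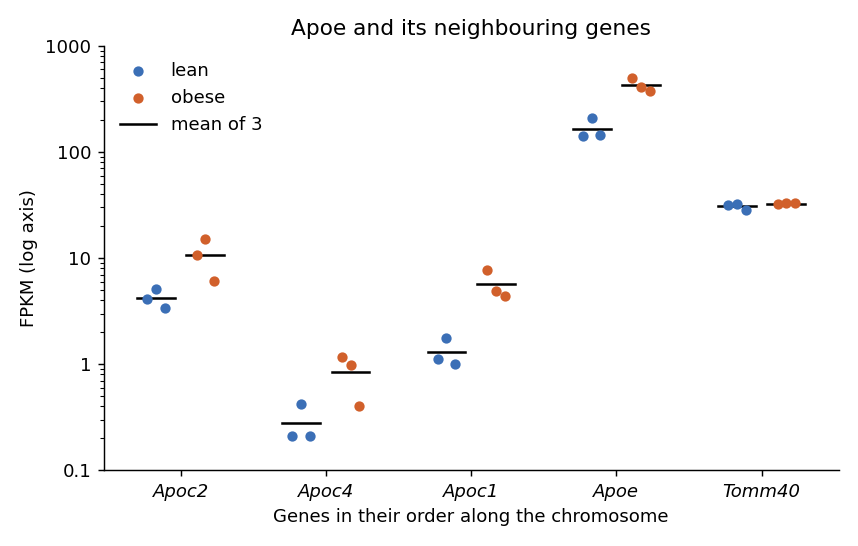
FPKM on a log axis of Apoe and 4 neighbouring genes in chromosomal order, with lean libraries in blue, obese libraries in orange and a black line at the mean of 3. Apoc1, Apoc2 and Apoe are separate between groups, Apoc4 overlaps, and Tomm40 is level at 28.4 to 33.0 FPKM.

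Pltp encodes the phospholipid transfer protein, a secreted LXR target that moves phospholipid onto HDL (gene 18830, chromosome 2, 164839518 to 164857708). Its values were 5.98, 9.35 and 4.57 FPKM in lean libraries and 18.8, 16.6 and 17.7 FPKM in obese ones. As with Apoe, lean 2 was the highest lean library, and it remained well under all obese ones. The means of 6.63 ± 2.46 and 17.7 ± 1.12 FPKM (n = 3 per group, SD) gave a log2 difference of 1.34 ± 0.20 (limma, SE; BH-adjusted p = 0.00591). Pltp overlaps Ctsa, the lysosomal protective protein cathepsin A, by 1515 bases. Ctsa had 72.6 ± 10.6 and 91.8 ± 2.61 FPKM (n = 3 per group, SD), and its difference of 0.35 did not pass (limma, BH-adjusted p = 0.0913).

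Among the membrane proteins that export cholesterol, Scarb1 changed and both ABC transporters did not pass. Scarb1 encodes SR-BI, the HDL receptor through which cholesterol passes both ways (gene 20778, chromosome 5, 125277087 to 125341094). It stood at 12.7, 13.5 and 12.2 FPKM in lean libraries and at 18.7, 22.6 and 22.5 FPKM in obese ones. Obese 1, the highest for Apoe and Nr1h3, was the lowest obese library here, and the groups did not overlap. The means of 12.8 ± 0.627 and 21.3 ± 2.24 FPKM (n = 3 per group, SD) gave a log2 difference of 0.69 ± 0.10 (limma, SE; BH-adjusted p = 0.00501).

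Abca1, the transporter that loads cholesterol onto lipid-poor apolipoproteins (gene 11303, chromosome 4, 53030789 to 53159988), was the lowest of the 10 genes. It was listed at 1.79, 1.72 and 2.11 FPKM in lean libraries and at 2.68, 2.84 and 3.71 FPKM in obese ones. The groups did not overlap, and the means were 1.87 ± 0.208 and 3.08 ± 0.554 FPKM (n = 3 per group, SD). On the log2(FPKM + 1) scale, which understates the change of such a low gene, the difference was 0.50 ± 0.13 and missed the threshold (limma, SE; BH-adjusted p = 0.0588). It passed in 4 of the 18 other settings in which it was tested, with limma BH-adjusted p between 0.00557 and 0.568 over all of them.

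Abcg1, which passes cholesterol to mature HDL and is the transporter linked with LXRβ in T cells (gene 11307, chromosome 17, 31057694 to 31117984), was much the more abundant of the ABC pair. Its values were 21.4, 22.2 and 19.4 FPKM in lean libraries and 23.4, 24.3 and 21.9 FPKM in obese ones. Here the groups overlapped, since obese 3 lay under lean 2. The difference was 0.14 ± 0.09 (limma, SE; BH-adjusted p = 0.336) and turned to −0.01 after median-of-ratios scaling.

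Mylip and Lpcat3 are LXR targets with other tasks, and both showed small differences that did not pass. Mylip encodes IDOL, a ubiquitin ligase that limits lipoprotein uptake (gene 218203, chromosome 13, 45389742 to 45411940). It was listed at 25.7, 26.3 and 25.8 FPKM in lean libraries and 31.0, 29.1 and 32.1 FPKM in obese ones, a log2 difference of 0.24 ± 0.07 (limma, SE; BH-adjusted p = 0.0955). Lpcat3, which inserts polyunsaturated fatty acids into membrane phospholipids (gene 14792, chromosome 6, 124663094 to 124704716), had 21.5, 20.6 and 22.3 FPKM in lean libraries and 26.2, 26.0 and 27.7 FPKM in obese ones. Its log2 difference was 0.30 ± 0.08 (limma, SE; BH-adjusted p = 0.0542). For both genes each obese library was above each lean one. After median-of-ratios scaling the differences were 0.09 for Mylip and 0.15 for Lpcat3. Of 19 other settings, Mylip passed in 2, with array weights and after scaling without globin genes (limma, BH-adjusted p between 0.0209 and 0.868 over all 19). Lpcat3 passed in 4, which were these 2, the replicate block and the fit without lean 3, where the adjusted p was 0.0471 (limma, BH-adjusted p between 0.00556 and 0.715 over all 19). Lpcat3 overlaps by 347 bases with Emg1, a ribosome assembly gene of 161 ± 5.77 and 146 ± 12.9 FPKM (n = 3 per group, SD).

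Npc1 carries cholesterol out of the late endosome and lysosome, upstream of efflux (gene 18145, chromosome 18). It stood at 15.5, 16.4 and 17.8 FPKM in lean libraries and at 16.6, 16.3 and 15.01 FPKM in obese ones. The groups overlapped almost fully, and the difference was −0.05 ± 0.09 (limma, SE; BH-adjusted p = 0.750), with a sign that turned under TPM scaling (0.01). Its partner Npc2, the soluble lysosomal cholesterol carrier, had 157 ± 3.95 and 133 ± 17.7 FPKM (n = 3 per group, SD) and a difference of −0.25 (limma, BH-adjusted p = 0.163).

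Ordered by level in lean libraries, Apoe and Nr1h2 came first, followed by Mylip, Lpcat3, Abcg1, Npc1, Scarb1, Pltp, Nr1h3 and Abca1. Lpcat3 and Abcg1 overlapped there, as did Pltp and Nr1h3, and the other neighbours in that order were separate in all 3 libraries. In obese libraries Scarb1 and Pltp moved past Npc1. The neighbours Abcg1 and Scarb1, Scarb1 and Pltp, and Npc1 and Nr1h3 then overlapped, and the lowest Pltp value equalled the highest Npc1 value at 16.6 FPKM. Within groups, the coefficient of variation ran from 1.38% to 37.0% among lean libraries and from 3.41% to 26.8% among obese ones. Pltp (37.0%) and Apoe (23.2%) varied most among lean libraries and Nr1h3 (26.8%) among obese ones.

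Each gene was also set against the macrophage markers of its own library. The measure was its log2(FPKM + 1) value minus the mean of the 17 macrophage markers on the same scale. For Apoe this relative level was 3.50 ± 0.379 in lean and 3.55 ± 0.051 in obese libraries (n = 3 per group, SD), a difference of 0.05 (exact permutation test, 2-sided, p = 0.8). Nr1h3 differed by −0.07 (exact permutation test, 2-sided, p = 0.9) and Pltp by 0.01 (exact permutation test, 2-sided, p = 1.0). For these 3 genes the groups overlapped on this measure. Scarb1 differed by −0.65 and Abca1 by −0.83, although both were higher in obese libraries before subtraction. Lpcat3, Mylip, Abcg1, Npc1 and Nr1h2 differed by −1.03 to −1.46. For these 7 genes the groups were separate (exact permutation test, 2-sided, p = 0.1 for each, the smallest that 3 against 3 libraries can give). The marker mean itself was 3.75 to 4.01 in lean libraries and 5.08 to 5.38 in obese ones. A gene that is level between groups therefore comes out lower on this measure, so the separation of these 7 genes shows no fall of their own. The tests over the 10 genes form 1 family, and none can pass 0.05. Which cells carried the transcripts was not tested.

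**Figure D3:**
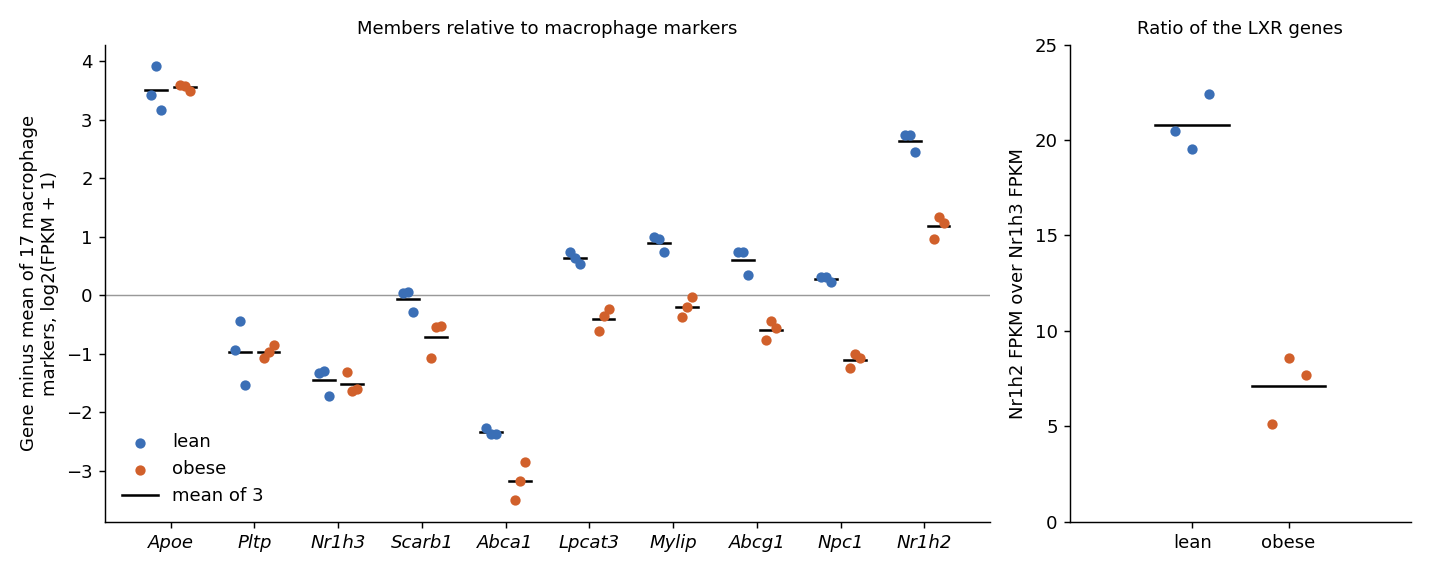
Left, each gene's log2(FPKM + 1) minus the mean of 17 macrophage markers in the same library, with lean in blue, obese in orange and a line at the mean of 3. Apoe, Pltp and Nr1h3 overlap between groups and the other 7 are lower in obese libraries, where the subtracted marker mean is higher. Right, the ratio of Nr1h2 to Nr1h3 FPKM lies at 19.5 to 22.4 for lean libraries and at 5.11 to 8.59 for obese ones.

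Promoters are shown for Apoe, Nr1h3 and Pltp, which rose and have a window in the table used, because LXR binds a known element, a direct repeat of AGGTCA spaced by 4 bases. RefSeq windows of the 250 bases before a start site (build GRCm38.p6) were found for 7 of the 10 genes and used for all 7, with 10 windows in all. They were not used for Abcg1, Scarb1 and Npc1. All windows of Apoe and Nr1h3 lie inside the gene spans given above, which end at 19701310 and 91202829. The sequence beyond these outer ends was not searched. The windows of Apoe, Nr1h3 and Pltp below read 5′ to 3′ along the gene, which lies on the minus strand in each case, and leave out bases annotated as exon. Capitals mark the GC box, GGGCGG on either strand.
Apoe, chr7:19699189-19699438: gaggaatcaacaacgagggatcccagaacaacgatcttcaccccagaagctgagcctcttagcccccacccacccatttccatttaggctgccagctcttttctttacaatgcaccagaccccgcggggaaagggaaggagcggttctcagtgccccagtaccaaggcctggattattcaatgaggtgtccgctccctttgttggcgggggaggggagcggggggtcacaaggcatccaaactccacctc
Nr1h3, chr2:91195152-91195366: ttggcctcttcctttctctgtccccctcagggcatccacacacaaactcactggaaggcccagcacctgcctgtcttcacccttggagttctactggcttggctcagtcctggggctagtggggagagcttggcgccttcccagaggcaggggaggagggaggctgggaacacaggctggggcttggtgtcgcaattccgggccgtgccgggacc
Pltp, chr2:164857712-164857958: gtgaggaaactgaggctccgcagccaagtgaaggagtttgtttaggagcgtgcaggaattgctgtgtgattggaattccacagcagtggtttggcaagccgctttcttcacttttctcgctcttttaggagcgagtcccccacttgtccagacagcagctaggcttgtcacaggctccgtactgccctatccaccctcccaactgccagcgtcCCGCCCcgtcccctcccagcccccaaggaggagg

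The full repeat, AGGTCA followed by any 4 bases and AGGTCA again, was searched on both strands and was in none of the 10 windows and in 0.0152% of all 32851 promoter windows of that length. A relaxed form, in which the first base of each AGGTCA may be any base, was also in none of them and in 0.0639% of all windows. AGGTCA alone, which the full repeat contains, was in no window of the 7 genes and in 14.0% of all. The E-box CACGTG, in 6.02% of all windows, was found in that of Abca1, and the GC box, in 32.7% of all, in those of Abca1, Lpcat3, Pltp and Mylip. The closest approach to the full repeat among the 10 windows was in Abca1, whose promoter is a textbook LXR target. It lies on chromosome 4 from 53159947 to 53159962, begins 67 bases before the start site and is read here against the direction of the gene, with the 2 arms of the repeat in capitals.
Abca1, best match to the repeat: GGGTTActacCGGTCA
It shared 9 of the 12 letters of the repeat, and 18.5% of all windows held a match at least as close. The best matches in the windows of Apoe, Nr1h3 and Pltp shared 7 or 8 letters. A match of at least 8 letters was held by 70.6% of all windows, and one of at least 7 by 99.5%. A match is a description of letters, so neither a close match nor the lack of one tells whether LXR binds there. Elements outside these windows were not searched.

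Other genes of LXR signalling and sterol handling were taken from a list of 41, also chosen with earlier results of these data known. All were found, and 32 were tested. Of these 9 rose and none fell, beside 5.77% of all tested genes that rose, and the median difference was 0.19 against 0.10 for all tested genes. The 6 with the smallest adjusted p are genes known from macrophages. Cd5l, a secreted survival factor of macrophages and an LXR target, rose from 13.0 ± 0.677 to 56.2 ± 12.3 FPKM (n = 3 per group, SD), a log2 difference of 2.01 ± 0.14 (limma, SE; BH-adjusted p = 4.00e-04). Mertk, the receptor for apoptotic cells and also an LXR target, rose from 1.25 ± 0.375 to 5.39 ± 0.615 FPKM (n = 3 per group, SD; log2 difference 1.51). Apoc1 is given above. Cyp27a1, which makes an oxysterol that activates LXR, rose by 0.91, and Cd36, a fatty acid and lipoprotein scavenger receptor, by 1.88. Cd36 stood at 12.45, 5.94 and 14.58 FPKM in obese 1 to 3, and was thus lowest in obese 2, the obese library with the least red cell RNA. Which cells carried it was not tested. Pparg, the nuclear receptor that can induce Nr1h3, rose by 1.08. The other 3 were Rxra, Lpl (lipoprotein lipase, 0.93) and Nceh1, which frees stored cholesterol (0.48). Nceh1 passed in none of the 6 fits with 1 library left out (limma, BH-adjusted p up to 0.140). With obese 2 alone against the lean libraries, the log2 differences were 1.82 for Cd5l, 1.43 for Mertk, 1.37 for Apoc1 and 1.17 for Cd36. They were 1.01 for Pparg, 0.88 for Cyp27a1, 0.56 for Rxra and 0.50 for Nceh1, while Lpl was not tested in that fit.

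LXR targets of fatty acid synthesis, named after their values were seen, were not called. Srebf1, the transcription factor through which LXR drives lipid synthesis, had 30.8 ± 4.38 FPKM in lean libraries and 29.5 ± 2.24 FPKM in obese ones (n = 3 per group, SD; log2 difference −0.06; limma, BH-adjusted p = 0.788). Fasn, fatty acid synthase, had 23.0 ± 1.34 and 19.3 ± 0.921 FPKM (n = 3 per group, SD; log2 difference −0.24; limma, BH-adjusted p = 0.116). Its obese values, up to 19.9 FPKM, all lay under its lean ones, from 21.9 FPKM. Groups did not overlap for 31.5% of all tested genes. Scd1 and Scd2, desaturases, had differences of 0.44 and −0.01 and overlapped between groups. Arl4c, a small GTPase induced by LXR, had 0.08 and overlapped as well.

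The opposite arm of sterol control, the synthesis and uptake genes driven by SREBP2 when sterol is scarce, had no called gene among 24 tested of 25 listed. At an unadjusted p under 0.05 there were 5 of 24, each lower in obese libraries. Over all 10788 tested genes there were 2792, which is no smaller a share. That count takes both directions together, so it is not a like comparison for the lower direction. The difference was negative for 17 of the 24, beside 3154 of all 10788 tested genes. The median difference was −0.09, against 0.10 for all tested genes. Among the 5 was Fdps, a prenyl diphosphate synthase, at 50.8, 51.7 and 41.4 FPKM in lean libraries and 38.5, 42.0 and 33.5 FPKM in obese ones. Its groups overlapped, since obese 2 lay above lean 3, and the log2 difference was −0.33 ± 0.11 (limma, SE; BH-adjusted p = 0.120). Srebf2, which encodes SREBP2 itself and was named after its values were seen, had 74.7 ± 5.94 and 63.4 ± 4.79 FPKM (n = 3 per group, SD; log2 difference −0.23; limma, BH-adjusted p = 0.142). Mvd, an enzyme of the mevalonate pathway chosen in the same way, had 14.0 ± 0.817 and 11.3 ± 1.67 FPKM (n = 3 per group, SD; log2 difference −0.29; limma, BH-adjusted p = 0.157).

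**Figure D4:**
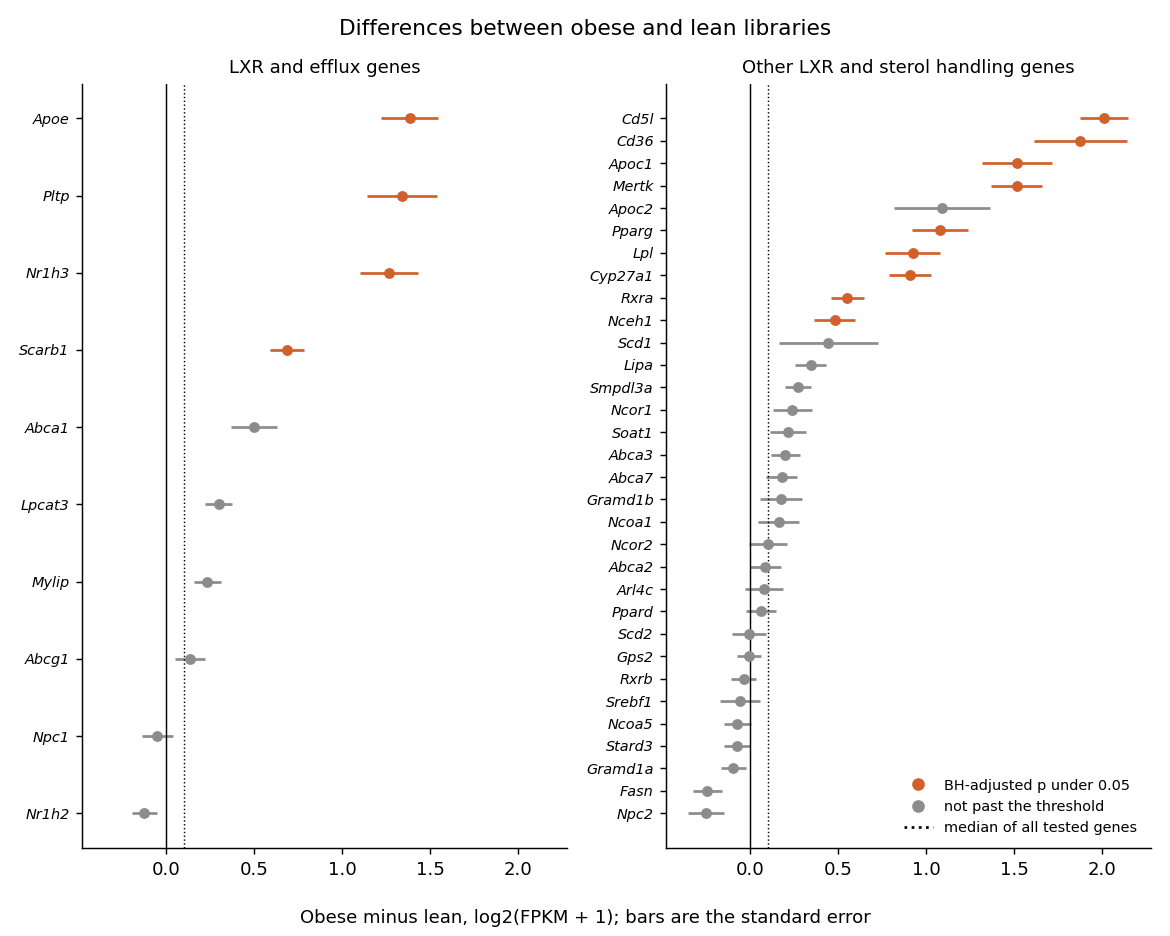
Obese minus lean differences on the log2(FPKM + 1) scale with their standard errors for the 10 genes and 32 other LXR and sterol handling genes. Genes past the threshold are orange, 4 in the first panel and 9 in the second, and the dotted line is the median of all tested genes at 0.10.

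Genes with the most similar course over the 6 libraries were found by the mean absolute difference of centred log2(FPKM + 1) values among 10500 other tested genes, as a description without a test. For Apoe they were Treml4 (0.09), a receptor of splenic macrophages and dendritic cells, Apoc1 (0.09), and Csf1r (0.11), the receptor for macrophage colony-stimulating factor. For Nr1h3 they were Tgm1 (0.10), Pcolce2 (0.10) and Sdc3 (0.11), each highest in obese 1. Abca1 was closest to Fam160a1 (0.02), Arl5a (0.03) and Psme4 (0.03), each highest in obese 3. Abcg1 was closest to Rnf135 (0.02), Hdac5 (0.02) and Clptm1 (0.02).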

How the data were processed

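RNA of sorted splenic CD4+ T cells was sequenced, 3 libraries per group, and groups were taken from the diet and state in the labels. The authors deposited FPKM values with 2 decimals, 1 table per library. Per the submitters' processing notes the tools were Bowtie and RSEM and the builds GRCm38 and mm10. Their versions and the annotation, filters and strand setting were not given in the sources used here. Low values of single-transcript genes showed no whole-read steps, so depth is unknown and precision rests on the spread between libraries.

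The filter was 1 FPKM or more in 3 or more libraries, and the genes left were tested as log2(FPKM + 1) with limma 3.58.1 in R 4.3.3 (eBayes with trend, group as sole term, 2-sided, BH over all 10788 genes). Tested on simulated data with 10788 genes, the test recovered 27.7%, 86.8% and 98.4% of genes changed by 0.5, 1 and 2 on the log2 scale. Exact permutation tests used Python 3.11.15. Promoter sequences and positions are from RefSeq, GRCm38.p6, and exons from GENCODE. The 10 genes and all lists were chosen with earlier results of these data known. Named were all 10 genes, up to 6 called genes per list and direction or the 2 with the smallest p, fixed markers, and the 3 most similar genes for Abca1, Abcg1, Apoe and Nr1h3; overlapping or neighbouring genes and other list genes with values were chosen after their values were seen. Alternatives were other pseudocounts, filters, scalings, variance models, library weights, a replicate block and each library left out; scaling without globins, and obese 2 alone, were added after seeing the data. The count of mismatches to the LXR repeat was also added. Some genes of the sterol synthesis list are counted but not reported here by name.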

Additional observations from a re-analysis of the deposited data

How the results depend on the processing

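Apoe, Nr1h3, Scarb1 and Pltp passed in each of 18 alternatives. In the last, obese 2 stood alone against the lean libraries, which then give all of the spread, and the limma BH-adjusted p was 0.0153, 0.0249, 0.0546 and 0.104; it says nothing on stability. Of the 10 genes, 4 to 5 rose with 1 library left out, 6 with the replicate block, 7 with array weights or after scaling without globin genes, and 2 with obese 2 alone; none fell in any setting. Abcg1 turned to −0.008 after median-of-ratios scaling, and Npc1 to 0.008 after TPM scaling, 0.041 with array weights and 0.05 without globins. Relative to macrophage markers, the difference of Npc1 was −1.51 with a pseudocount of 0.25.

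In the wider list 5 genes rose with a filter of 5 FPKM, 16 with array weights, and 7 to 10 with 1 library left out. Among synthesis genes, 1 rose and 2 fell with array weights, 1 fell with the replicate block, and none changed with 1 library left out. Over all genes, 622 rose and 56 fell; the counts were 344 and 24 without a filter, 316 and 36 with a filter of 5 FPKM, 434 and 173 after median-of-ratios scaling, 322 and 112 after quantile normalization, 2507 and 609 with array weights, 866 and 149 with the replicate block, 940 and 45 without globins, 135 and 17 with obese 2 alone, and 301 to 612 and 17 to 95 with 1 library left out. The cause was not tested.

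Median-of-ratios scaling moved the median of all genes from 0.10 to −0.03, and the higher share of calls from 91.7% to 71.5% (74.2% after quantile normalization, 80.5% with array weights). Pairing of libraries by equal replicate numbers was not shown: correlations of deviations were 0.03, 0.06 and 0.19, and 1 of 3 lean libraries correlated best with its own number. With 3 libraries per group, these values cannot exclude a pairing. Depth is unknown, so what it limits cannot be given.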
